A study of Homo sapiens with 3 samples.

Results

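The lipid-sensing nuclear receptors and their coactivators were followed here as 9 genes, taken by name from the deposited table: the receptors PPARA, PPARD and PPARG, the shared partners RXRA and RXRB, the sterol receptors NR1H2 (LXR beta) and NR1H3 (LXR alpha), and the coactivators PPARGC1A (PGC-1 alpha) and PPARGC1B (PGC-1 beta). All 9 were among its 13247 genes, each of which the table marks as protein-coding. The RNA had been pulled down through the Flag tag on DDX49, which is an RNA helicase of the DEAD-box family, after ultraviolet cross-linking, and was then sequenced (RIP-seq). The series held 1 group of 3 replicate libraries. Each came from wild-type HHL5 cells, a human liver line that the labels describe as embryonic liver cells, that carried transfected Flag-DDX49 and received OA/PA (2 parts to 1, 1.5 mM) over 24 h. OA/PA usually stands for oleic and palmitic acid, a mixture used to load liver cells with fat. No input RNA, control pull-down or untreated cells were analysed here. A level therefore joins the amount of a transcript in the cells with its recovery on DDX49, and in bulk samples fewer cells of a type and less RNA per cell cannot be told apart.

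PPAR and LXR proteins are transcription factors switched on by lipids. Each binds DNA together with RXR, the common partner, which itself binds retinoids. PPARA drives fatty acid oxidation in liver, PPARD does so in many tissues, and PPARG is best known for fat cell formation and lipid storage. The LXR pair respond to oxysterols and raise cholesterol export and fatty acid synthesis, while PGC-1 coactivators bind such receptors and raise mitochondrial gene expression.

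The libraries held 2023133, 1461858 and 1096586 counts in replicates 1, 2 and 3, and 1 count was worth 0.494, 0.684 and 0.912 CPM, the scale on which a library sums to 1000000. DDX49 itself took 3.53%, 4.15% and 5.09% of the counts. Of 10 hepatocyte markers, 3 were in the table: CPS1 at 1726 ± 45.9 CPM (SD, n = 3), CEBPA with 4, 2 and 2 counts, and TF with 0, 1 and 0 counts. Albumin, the defining hepatocyte transcript, was not analysed here. Of 14 markers of epithelial, stromal, endothelial and immune cells, 10 were in the table. The epithelial keratins KRT8 (6409 ± 620 CPM), KRT7 (5813 ± 143) and KRT18 (2608 ± 127) and the mesenchymal filament VIM (1104 ± 52.5) were recovered in every library, as were the stromal genes COL3A1 (42.5 ± 9.59) and PDGFRB (31.1 ± 8.90). These 3 keratins differed between libraries in the chi-square test given below, 3 of 6 such markers tested, beside 19.6% of all genes tested. With 6 markers nothing is read from that count. The endothelial gene CDH5 had 14, 2 and 1 counts, and KRT19, COL1A1 and CD14 had 0 in every library.

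The start regions of 4 of these genes are shown, picked by their values or their letters. NR1H2 was the steadiest of the recovered genes between libraries, PPARD was among the least steady, PPARG carries the receptor-binding core letters, and PPARGC1A gave no count. Whether the letters bear on levels or on steadiness was not tested. Each is the 250 bases before the gene's outermost annotated start in RefSeq (GRCh38.p14, the assembly of hg38), written 5′ to 3′ on the gene's strand. The positions are chr19:50376207-50376456 (+ strand) for NR1H2, chr6:35342308-35342557 (+ strand) for PPARD, chr3:12287118-12287367 (+ strand) for PPARG and chr4:24472906-24473155 (- strand) for PPARGC1A. Capitals mark AGGTCA, the core that RXR partners bind, GGGCGG, the GC box, and CCGGAAG, the core of ETS-type sites, on either strand.
NR1H2: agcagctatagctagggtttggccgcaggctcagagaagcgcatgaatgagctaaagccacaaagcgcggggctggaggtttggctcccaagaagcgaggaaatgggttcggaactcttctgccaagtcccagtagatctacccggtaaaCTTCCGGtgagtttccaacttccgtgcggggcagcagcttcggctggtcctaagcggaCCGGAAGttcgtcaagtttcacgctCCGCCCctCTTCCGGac
PPARD: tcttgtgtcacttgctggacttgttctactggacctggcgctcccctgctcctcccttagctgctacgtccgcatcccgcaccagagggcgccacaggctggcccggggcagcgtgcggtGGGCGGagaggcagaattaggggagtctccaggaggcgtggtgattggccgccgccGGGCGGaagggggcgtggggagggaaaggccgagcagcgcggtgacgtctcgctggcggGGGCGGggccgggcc
PPARG: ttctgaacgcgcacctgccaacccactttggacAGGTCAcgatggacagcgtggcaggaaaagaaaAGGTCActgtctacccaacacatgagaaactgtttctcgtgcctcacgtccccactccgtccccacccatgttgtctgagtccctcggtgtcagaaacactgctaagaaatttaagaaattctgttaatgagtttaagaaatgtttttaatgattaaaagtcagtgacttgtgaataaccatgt
PPARGC1A: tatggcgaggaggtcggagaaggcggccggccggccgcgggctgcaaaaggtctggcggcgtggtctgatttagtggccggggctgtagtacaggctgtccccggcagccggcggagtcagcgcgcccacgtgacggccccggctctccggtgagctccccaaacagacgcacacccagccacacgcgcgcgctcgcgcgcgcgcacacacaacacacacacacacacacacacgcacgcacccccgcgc

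The 4 regions differed in these letters. CCGGAAG occurred 3 times before NR1H2, against at least once in 8.52% of the 35116 RefSeq windows of the same length. GGGCGG occurred 3 times before PPARD and once before NR1H2, and 42.6% of all windows held it. AGGTCA occurred 2 times before PPARG, a window shown because it carries these letters, and 12.1% of all windows held it. The window of PPARGC1A held none of the 3, and its GC content was 70.8% against a median of 58% over all windows. Among the other 5 genes, GGGCGG occurred 6 times each before PPARA and RXRA, with overlapping matches counted, CCGGAAG occurred once before PPARA, and AGGTCA occurred once before NR1H3. The windows of RXRB and PPARGC1B held none of the 3. The only window listed for PPARGC1B precedes a start that lies 41630 bases inside the gene, so it is not that of the outermost start. The tandem forms AGGTCANAGGTCA and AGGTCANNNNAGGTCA, the spacings that PPAR and LXR pairs with RXR are known to bind, were in none of the 9 windows and in 0.0171% and 0.0142% of all windows. The TATA letters TATAAA were in none of the 9 either, against 10.7% of all windows. These are matches of letters only, and most genes have further starts.

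RNA of 8 of the 9 genes was recovered in all 3 libraries, and PPARGC1A was recovered in none. The 9 genes gave 759, 496 and 333 counts, or 0.0375%, 0.0339% and 0.0304% of each library. Their summed level was 339 ± 35.7 CPM (n = 3). The median of their mean levels was 33.7 CPM, beside 16.8 CPM over all 13247 genes. CPM is not corrected for transcript length, and transcript lengths were not used here, so no order of levels between different genes is given. What follows mainly compares each gene with itself across libraries. Where levels or medians of different genes stand side by side, they are not corrected for length.

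**Figure D1:**
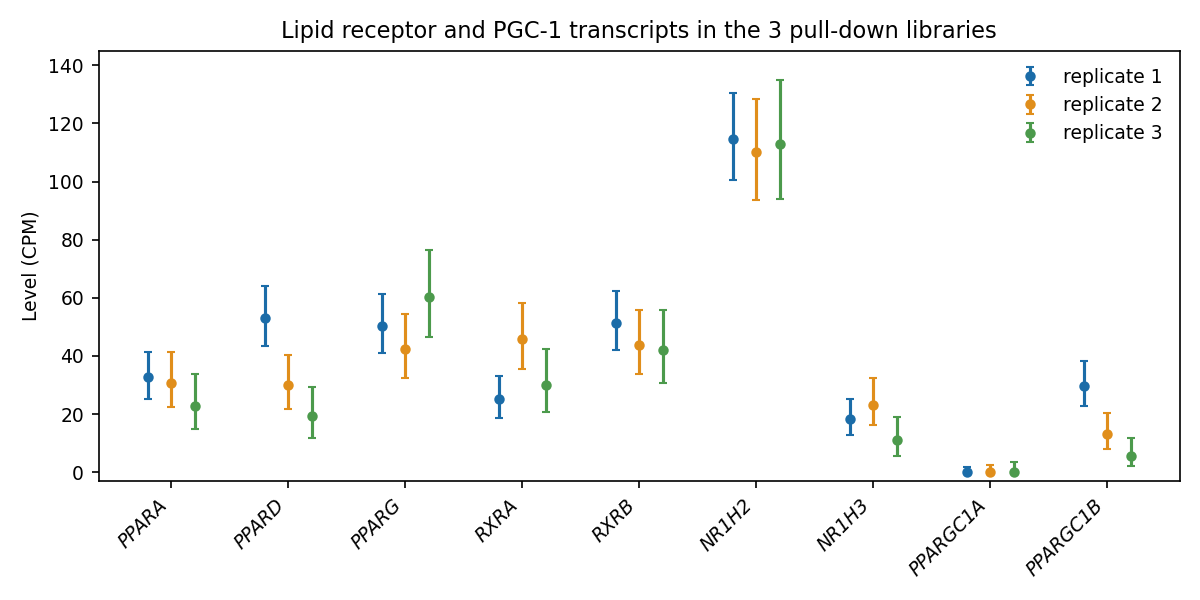
Level in CPM (vertical axis) of the 9 genes in replicates 1 (blue), 2 (orange) and 3 (green), with exact Poisson 95% intervals that cover counting error only. NR1H2 lies at 110 to 115 CPM in all 3 libraries, PPARD and PPARGC1B lie highest in replicate 1, and PPARGC1A lies at 0.

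The LXR beta transcript was the steadiest of the 8 that were recovered. It also had the most counts of these, 517 over the 3 libraries, and relative counting error is smaller at higher counts. Its steadiness was not separated from its depth. NR1H2 (ENSG00000131408, chromosome 19, 50376457 to 50383388, hg38) had 232, 161 and 124 counts, or 115, 110 and 113 CPM. The 3 libraries lay within 1.04-fold of each other, inside the counting interval of each. Its mean was 113 ± 2.30 CPM, and the coefficient of variation of its 3 CPM values was 2.04%. In an edgeR model its biological coefficient of variation was 10.2%. The common value was 14.1% over the 8633 genes whose counts summed to 30 or more. The model draws the value of each gene toward those of other genes, so 10.2% is not the spread of NR1H2 alone. The LXR alpha transcript, NR1H3 (ENSG00000025434, chromosome 11, 47248300 to 47269033), the form known for its role in liver and macrophages, had 37, 34 and 12 counts, or 18.3, 23.3 and 10.9 CPM. Its lowest library was replicate 3, where 12 counts allow 5.65 to 19.1 CPM, and replicate 2 stood 2.13-fold above it (exact 95% counting interval 1.07 to 4.51). The annotated span of NR1H3 overlaps that of the protein-coding gene ACP2, and the labels do not say to which gene reads in such overlaps went.

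PPAR transcripts were recovered for all 3 receptors. PPARA (ENSG00000186951, chromosome 22, 46150526 to 46243756), the liver receptor, had 66, 45 and 25 counts, or 32.6, 30.8 and 22.8 CPM (mean 28.7 ± 5.22). PPARG (ENSG00000132170, chromosome 3, 12287368 to 12434344) had 102, 62 and 66 counts, or 50.4, 42.4 and 60.2 CPM (mean 51.0 ± 8.90). For both genes the counting intervals of the 3 libraries overlapped. PPARD (ENSG00000112033, chromosome 6, 35342558 to 35428178) had 107, 44 and 21 counts, or 52.9, 30.1 and 19.2 CPM (mean 34.0 ± 17.2). Replicate 1 stood above the other libraries for PPARD, by 1.76-fold over replicate 2 (exact 95% counting interval 1.23 to 2.56) and by 2.76-fold over replicate 3 (1.72 to 4.64). Together the PPAR genes gave 136, 103 and 102 CPM, and of the 3 genes PPARD differed most between replicate 1 and the others.

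The RXR partners were both recovered, and their share of counts moved between libraries. RXRA (ENSG00000186350, chromosome 9, 134326455 to 134440585), the main liver form, had 51, 67 and 33 counts, or 25.2, 45.8 and 30.1 CPM (mean 33.7 ± 10.8). Replicate 2 was highest for RXRA, with replicate 1 at 0.550 times its level (0.374 to 0.804). RXRB (ENSG00000204231, chromosome 6, 33193588 to 33200853), which is expressed widely, had 104, 64 and 46 counts, or 51.4, 43.8 and 41.9 CPM (mean 45.7 ± 5.02), and the intervals of its libraries overlapped. RXRG was not analysed here.

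Of the coactivators, PPARGC1B was recovered in every library and PPARGC1A in none. PPARGC1A (ENSG00000109819, chromosome 4, 23792021 to 24472905), which fasting and cold are known to induce, had no count in any library. With 3 counts as the limit that a count of 0 allows, its level could still be up to 1.48 CPM in replicate 1, 2.05 in replicate 2 and 2.74 in replicate 3. The two-sided exact Poisson intervals of the plot of levels reach higher, to 1.82, 2.52 and 3.36 CPM. PPARGC1B (ENSG00000155846, chromosome 5, 149730310 to 149857959), known to support lipid synthesis through SREBP factors in mouse liver, had 60, 19 and 6 counts. These are 29.7, 13.0 and 5.47 CPM (mean 16.0 ± 12.4, and 9.23 without replicate 1), and replicate 1 stood 5.42-fold above replicate 3 (2.35 to 15.4). Its span holds the hairpin gene MIR378A and overlaps that of the protein-coding gene PDE6A.

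For PPARGC1B, PPARD and RXRA the libraries lay further apart than counting error allows. The test was a chi-square test of the 3 counts of a gene against the library totals, over all genes whose counts summed to 30 or more and with Benjamini-Hochberg adjustment at 0.05. Of the 9 genes, 8 passed the count minimum and 3 were called, beside 19.6% of all 8633 genes tested. Among the 4648 genes with summed counts of 83 to 517, the range of these 8 genes, 17.8% were called. With 8 genes, a count of 3 is not read as a property of lipid receptors. The adjusted p was 0.000143 for PPARGC1B, 0.000232 for PPARD and 0.0253 for RXRA, and from 0.187 (NR1H3) to 0.956 (NR1H2) for the other 5. The coefficients of variation of the called genes in edgeR, drawn toward those of other genes, were 34.6%, 23.8% and 20.6%. That of NR1H3, which was not called, was 23.9%. Taken from the 3 CPM values alone, with counting error included, they were 77.2%, 50.6% and 32.0%, and 35.4% for NR1H3. Without replicate 1 none was called: PPARD had an adjusted p of 0.299, RXRA one of 0.212, and PPARGC1B fell below the count minimum. Without replicate 2, RXRA was not called (0.636). The test compares libraries of 1 group, not conditions, and the labels do not say that the replicates were separate cultures, so this spread may be technical.

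**Figure D2:**
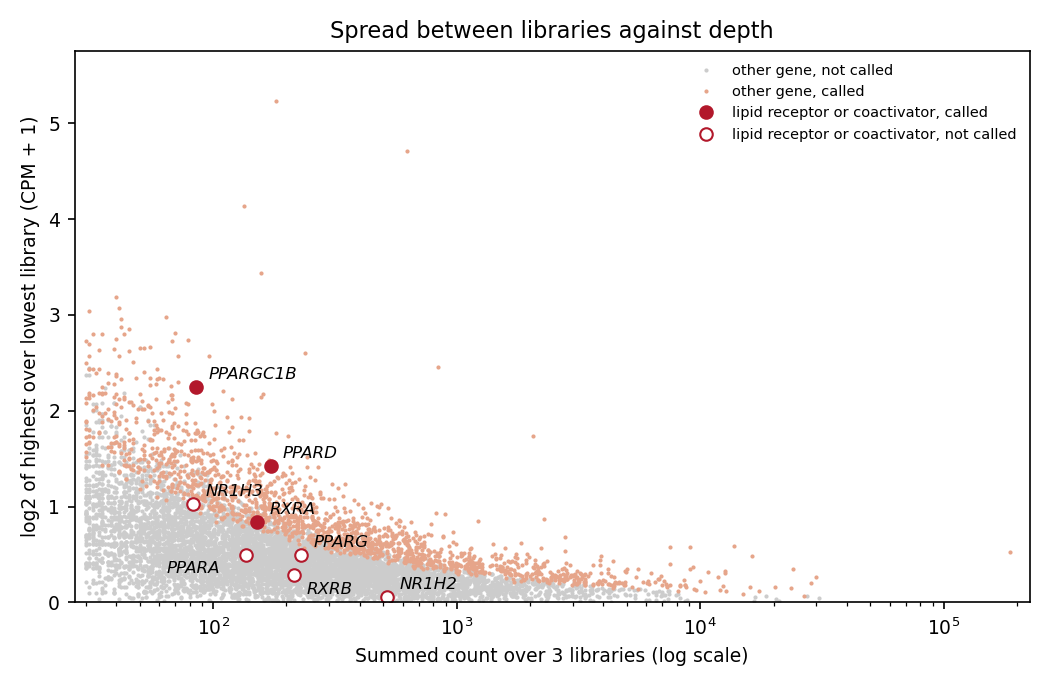
Each point is a gene whose counts summed to 30 or more: the horizontal axis is its summed count over the 3 libraries (log scale) and the vertical axis the log2 ratio of its highest to its lowest library (CPM + 1). Coloured or filled points differed between libraries at an adjusted p under 0.05, and PPARGC1B, PPARD and RXRA are the 3 filled large points, while NR1H2 lies near 0.

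Replicate 1, where PPARGC1B and PPARD were highest, was also the deepest library and the one with the smallest share of DDX49 counts (3.53%). Replicate 3, where both were lowest, was the shallowest and had the largest share (5.09%). Of the 1691 genes called over the whole table, 569 (33.6%) were likewise highest in replicate 1 and lowest in replicate 3. With the DDX49 row left out of the totals, the adjusted p of the chi-square test was 0.000156 for PPARGC1B and 0.000285 for PPARD. This step takes only 3.53% to 5.09% from a total, so it could change these differences only slightly. It does not test recovery in the pull-down. The part of depth, or of what the DDX49 share reflects, in these differences was not tested.

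Within pairs of related receptors, the direction in which a share of counts moves between libraries does not depend on transcript length. The size of the move does. RXRA held 32.9%, 51.1% and 41.8% of the counts of both RXR genes in replicates 1, 2 and 3, and the exact Clopper-Pearson intervals of replicate 1 (25.6 to 40.9) and replicate 2 (42.3 to 59.97) did not overlap. NR1H2 held 86.2%, 82.6% and 91.2% of the LXR counts, with overlapping intervals. PPARD held 61.8%, 49.4% and 45.7% of the counts of PPARD and PPARA, and PPARA held 39.3%, 42.1% and 27.5% of those of PPARA and PPARG. The intervals of the 3 libraries overlapped for both of these pairs. The share itself is one of reads and says nothing on which transcript had more molecules. For PPARGC1B and PPARGC1A no ratio is given, since PPARGC1A was at 0. A two-sided exact sign-flip test over 3 libraries cannot go below 0.25, and none is given.

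**Figure D3:**
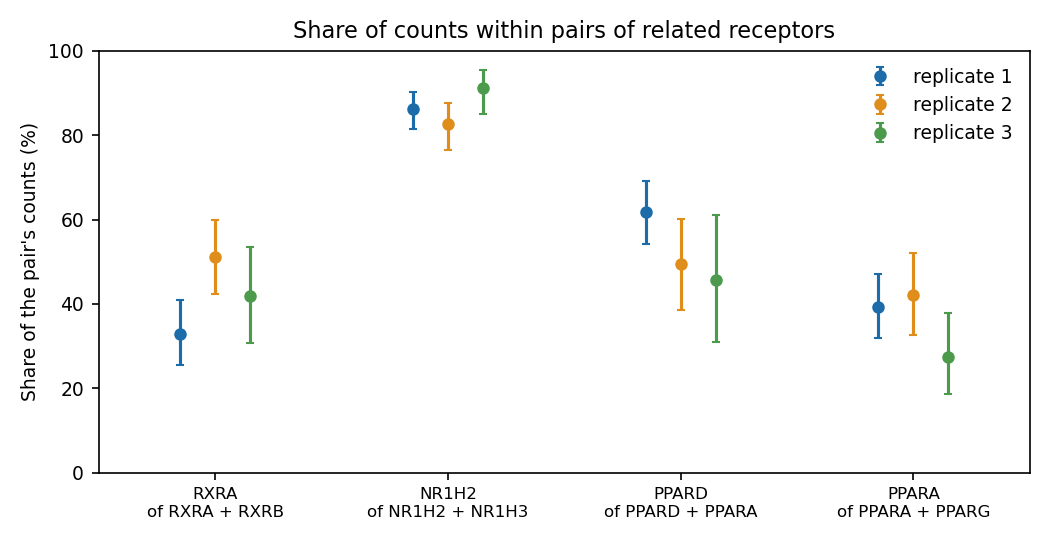
Share of a pair's counts (vertical axis, percent) that fell on the gene named at the top of each label, in replicates 1 (blue), 2 (orange) and 3 (green), with exact Clopper-Pearson 95% intervals. The RXRA share is 32.9% in replicate 1 and 51.1% in replicate 2, with intervals that do not overlap.

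The genes with the profile most like that of NR1H2 were GET3, ATXN2 and IGBP1, at Euclidean distances of 0.0297, 0.0317 and 0.0346 in log2(CPM + 1) over the 3 libraries. Their means were 113 ± 3.62, 112 ± 1.34 and 112 ± 1.05 CPM. With 3 libraries of 1 group this likeness is one of level and steadiness alone.

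Among the other nuclear receptors 1 of 17 tested was called, beside 19.6% of all genes tested. Nothing is read from a count over 17 genes. Of the 48 human nuclear receptors, 33 were in the table, and of the 26 outside the genes above, 19 had a mean of at least 1 CPM. The median over all 26 was 19.0 CPM. The thyroid hormone receptor THRA had 249, 223 and 224 CPM, and the orphan receptors NR2F1 and NR2F6 had 130, 141 and 157 CPM and 142, 117 and 143 CPM. RORA, ESR1, ESRRG and NR5A2 had 0 counts in each library, and NR5A2 is a receptor of liver bile acid synthesis. The receptor called was the retinoic acid receptor RARG (131, 101 and 98.5 CPM, adjusted p = 0.0457). Among 11 other receptors that can pair with RXR, 7 were in the table, with a median of 62.1 CPM. They include THRA, RARG and NR4A1 (76.0 ± 2.27 CPM).

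Of 17 coregulators of these receptors tested, 5 were called, beside 19.6% of all genes tested, and with so few genes nothing is read from that count. All 10 coactivators were in the table with a median of 90.5 CPM. The acetyltransferases CREBBP (277, 251 and 207 CPM, adjusted p = 0.0114) and EP300 (162, 160 and 109, 0.00597) and the Mediator subunit MED1 (108, 93.7 and 64.7, 0.0100) were called. All 3 were highest in replicate 1 and lowest in replicate 3, as PPARD and PPARGC1B were. The coactivator NCOA6 (119 ± 10.3 CPM) and the other 6 were not called. All 8 corepressors were in the table with a median of 66.0 CPM, and 7 were tested. NCOR1 (448, 443 and 362, 0.0108) and the deacetylase HDAC3 (47.9, 67.7 and 34.7, 0.0101) were called, both lowest in replicate 3. TBL1X (226 ± 20.4 CPM) was not.

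**Figure D4:**
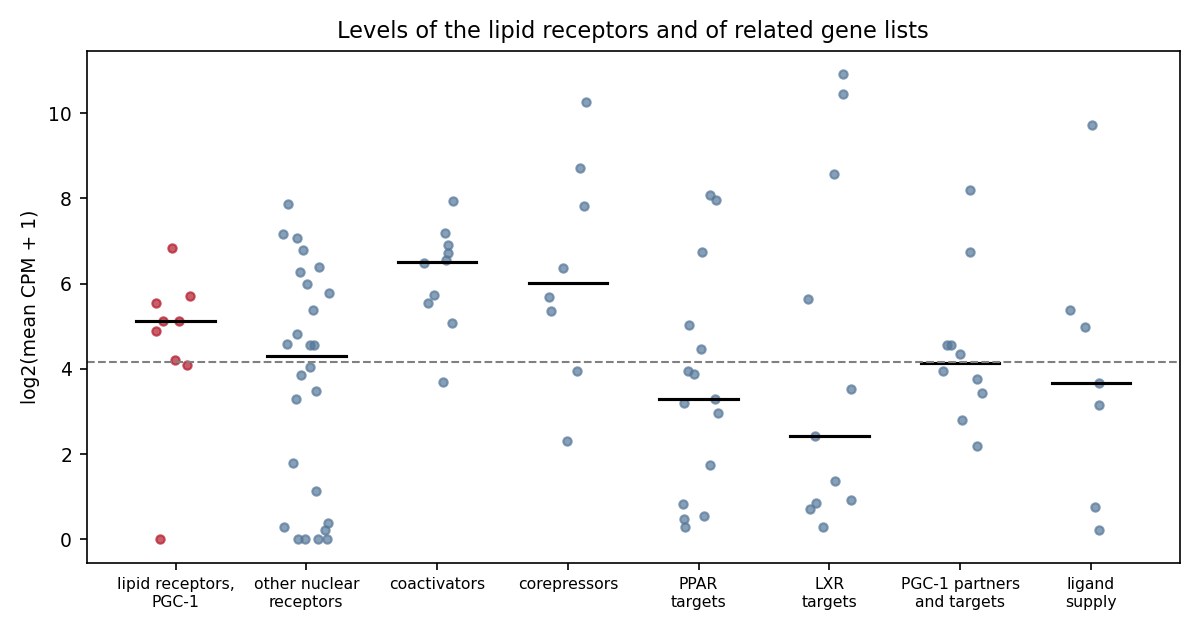
Mean level of each gene, as log2(mean CPM + 1) on the vertical axis, in the lipid receptor and PGC-1 genes (red) and in 7 related lists (blue), with a black bar at each median and a dashed line at the median of all 13247 genes. Genes at 0 counts lie at 0, and CPM is not corrected for transcript length.

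Of the known target genes tested, 2 of 10 PPAR targets and 3 of 5 LXR targets were called, again beside 19.6%. That share is not matched for depth, and genes with many counts pass this test at smaller differences. The 3 called LXR targets were deep: SREBF1 had 667, 528 and 487 counts, SCD 3630, 2913 and 2193, and FASN 3032, 2041 and 1419. Nothing is read from these numbers of calls. Of 24 PPAR targets, 15 were in the table and 11 had a mean of at least 1 CPM, with a median over the 15 of 8.78 CPM. The beta-oxidation enzymes HADHA (271 ± 16.1) and ACAA2 (106 ± 6.36) did not pass the test. CPT1A, which admits fatty acids to mitochondria, was called (287, 223 and 232 CPM, adjusted p = 0.00432), as was its partner CPT2 (24.7, 12.3 and 6.38, 0.00396), and both were highest in replicate 1. The other 6 of the 10 targets tested beside HADHA, ACAA2, CPT1A and CPT2 were not called. Of 15 LXR targets, 11 were in the table and 7 had a mean of at least 1 CPM, with a median of 4.38 CPM. The regulator SREBF1 (330, 361 and 444 CPM, adjusted p = 0.000168), the desaturase SCD (1794, 1993 and 2000, 0.000294) and the synthase FASN (1499, 1396 and 1294, 0.000676) were called. SREBF1 and SCD were highest in replicate 3 and FASN in replicate 1, so these 3 did not move one way. The cholesterol exporters ABCA1 (0, 4 and 0 counts) and ABCG1 (0, 3 and 3 counts), named after their values were seen, gave at most 4 counts in a library.

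All 10 partners and targets of PGC-1 were in the table with a median of 16.9 CPM. Of these, 0 of the 8 tested were called by the chi-square test, beside 19.6% of all genes, and 1 (NRF1) had an unadjusted p under 0.05. With 8 genes nothing is read from this. The mitochondrial fusion protein MFN2 had 306, 294 and 275 CPM, cytochrome c (CYCS) 108, 110 and 99.4 CPM, and the receptor ESRRA 18.3, 24.6 and 24.6 CPM. Of 13 genes of ligand supply, 7 were in the table with a median of 11.8 CPM. The fatty acid carrier FABP5 had 41.0 ± 6.18 CPM. The retinoic acid-forming enzyme ALDH1A3 was the 1 of 5 tested that was called (42.5, 28.7 and 20.1 CPM, adjusted p = 0.0203), highest in replicate 1.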

How the data were processed

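The authors handled the reads with CASAVA 1.4 and build hg38, per the submitters' processing notes. Neither aligner nor counter, nor its treatment of strand and shared reads, is given in the sources used here. Per the file headers, the authors deposited raw counts for each gene. A further 3 per-sample columns, called normalised by edgeR in the header, were not used.

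CPM is a gene's count over its library total, times 1000000. Coding or transcript lengths, which the planned order of levels and ratios between genes needed, were not used here, so these were replaced by shares of counts within pairs. Library differences were tested as the report describes, with a summed count of at least 30. Biological coefficients of variation were estimated in edgeR (TMM factors, intercept alone), which draws the value of each gene toward those of other genes. Intervals are at 95% and cover counting error only, since molecular identifiers are not mentioned in the sources used here. The chi-square test and the common coefficient of variation were tried on simulated counts, with outcomes not given here. Simulated counts for the chi-square test held counting error only, unlike the real libraries. RefSeq (GRCh38.p14) gave positions and start regions, with all 9 genes matched by gene ID.

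The 9 genes and 11 lists were chosen with earlier results of these data known. Named genes were the 9 genes, the 3 of highest mean CPM in each list that were not among them, those at 0 counts, receptors with mean CPM above the highest of the 9 (at most 5), DDX49, and the 3 nearest to the gene of highest mean CPM. Called genes of a list with 5 or fewer calls were named after their values were seen. A few genes covered by this rule are not reported here. Alternatives were other library sizes, count minimums, pseudocounts and leaving out each replicate. Python 3.11.15, numpy 2.4.6, scipy 1.17.1, pandas 2.3.3, matplotlib 3.10.9, R 4.3.3, edgeR 4.0.16 and DESeq2 1.42.0 were used.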

Additional observations from a re-analysis of the deposited data

How the results depend on the processing

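The calls of PPARD, RXRA and PPARGC1B held with count minimums of 10 or 1, with TMM or DESeq2 library sizes and with DDX49 left out of the totals. Leaving out 1 replicate gave 0 to 3 called genes among the 9, with 0 without replicate 1, and 474 to 1322 over all genes, with 505 without replicate 1 and 474 without replicate 3. Fewer libraries and counts enter these tests. Smaller totals with DDX49 left out raise the CPM of every other gene. Mean CPM of NR1H2 was then 118, past its small SD of 2.30, while that of PPARG went from 51.0 to 53.3, within its SD of 8.90. With genes below 1 CPM left out, list medians (averaged over libraries) were 34.9 CPM for the 9 genes, 35.4 for nuclear receptors, 15.3 for PPAR targets, 49.0 for LXR targets, 28.0 for ligand supply, 864 for hepatocyte markers and 1104 for other cell markers. These medians rise by construction. Only 2 hepatocyte markers reached 1 CPM, CPS1 (1726 CPM) and CEBPA (1.72 CPM), so 864 CPM is the level of neither. With all 3 hepatocyte markers of the table the median was 1.72 CPM. Of 215 alternative values, 201 kept their call or moved by less than their bound. For levels, list medians and log2 ratios the bound was the SD over the 3 libraries. A mean over libraries cannot move past that SD when 1 library is left out. That outcome was fixed in advance, so the number is not read as stability. It counts the change of sign given next as kept and leaves out the lost call of PPARGC1B without replicate 1. The log2 count ratio of PPARD over PPARA, not corrected for length, was 0.14, and -0.14 without replicate 1. The alternatives for coefficients of variation were chosen after seeing the data. The alternatives that needed coding lengths were not run. No paired analysis was possible because the series holds 1 group.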
